A study of Homo sapiens with 6 samples.

Results

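The table of H1299 libraries lists 10 genes that had mRNA in every control library and were at or near 0 in every library of the Ephexin1-depleted cells: BASP1, PTN, SH3BGRL, NCALD, HMGN5, KLHL4, NAP1L3, ZNF727, CDR1 and SLC16A9. They were taken by name from the 26255 genes of the table for being above 0.5 FPKM (sequenced fragments scaled to transcript length and library size) in all 3 control libraries and at or near 0 in all 3 depleted libraries. This choice used the same comparison, so their values are a description without a test. The pattern is not theirs alone. With at most 0.1 FPKM asked of every depleted library, 27 genes of the table had it, 9 of them members. H1299 is a non-small cell lung cancer line. A first group of 3 libraries came from H1299 cells that carried a control shRNA (shControl), and the second group of 3 from H1299 cells that carried an shRNA against Ephexin1 (shEphexin1), a guanine nucleotide exchange factor whose gene is NGEF. Both shRNAs were expressed from a plasmid with the U6 promoter, and stably transfected cells were selected with a drug. The labels and the methods name different resistance markers. The names of the shEphexin1 libraries share a stem, and so do those of the shControl libraries. The libraries of either group may be repeats of 1 clone or other single source. The p values then measure only the spread between the libraries.

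Several of these genes are best known from the nervous system. PTN encodes pleiotrophin, a secreted heparin-binding growth factor of the developing brain that acts through receptor phosphatases and proteoglycans at the cell surface. BASP1 and NCALD encode myristoylated proteins of the inner plasma membrane in neurons, and CDR1 shares its locus with a circular antisense RNA that binds miR-7 and is abundant in brain. HMGN5 and NAP1L3 belong to families that bind nucleosomes and histones. Other members of the set were a small thioredoxin-fold protein (SH3BGRL), a Kelch protein (KLHL4), a zinc finger protein (ZNF727) and a member of the monocarboxylate transporter family (SLC16A9).

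The set included a pair of genes with a shared start region and a locus full of microRNA sites, so the sequences of these are shown first. SH3BGRL and HMGN5 lie head to head on the X chromosome, and their annotated starts are 188 bases apart. This stretch, chrX:80457413-80457600 of GRCh37 on the plus strand, reads toward SH3BGRL and holds 9 CpG dinucleotides, which are in capitals here and in the promoters.
HMGN5 to SH3BGRL: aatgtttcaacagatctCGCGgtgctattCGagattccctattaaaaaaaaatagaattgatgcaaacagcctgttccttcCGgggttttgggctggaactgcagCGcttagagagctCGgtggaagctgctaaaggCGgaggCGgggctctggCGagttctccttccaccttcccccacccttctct
The 250 bases before the start of NAP1L3 (chrX:92928578-92928827, minus strand) and of SLC16A9 (chr10:61469838-61470087, minus strand) are shown because they hold many CpG and no annotated exon. Those before ZNF727 (chr7:63505562-63505811, plus strand) are shown as a promoter with few. All are from the RefSeq promoter table (GRCh38.p14) and were placed on GRCh37 by their single exact match. The start meant is the one RefSeq gives. For SLC16A9 it lies inside the GENCODE span of the gene, so the bases shown are not those before its outermost start.
NAP1L3: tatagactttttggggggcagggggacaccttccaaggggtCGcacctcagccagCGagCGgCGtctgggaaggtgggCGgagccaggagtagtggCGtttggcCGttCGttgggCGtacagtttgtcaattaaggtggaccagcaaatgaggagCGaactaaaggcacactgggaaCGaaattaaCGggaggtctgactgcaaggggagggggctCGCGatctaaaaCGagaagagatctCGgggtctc
SLC16A9: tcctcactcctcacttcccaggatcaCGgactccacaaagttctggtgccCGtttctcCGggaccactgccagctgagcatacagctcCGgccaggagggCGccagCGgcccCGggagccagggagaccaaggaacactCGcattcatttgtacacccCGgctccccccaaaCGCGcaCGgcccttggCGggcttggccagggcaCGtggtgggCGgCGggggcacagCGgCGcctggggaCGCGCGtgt
ZNF727: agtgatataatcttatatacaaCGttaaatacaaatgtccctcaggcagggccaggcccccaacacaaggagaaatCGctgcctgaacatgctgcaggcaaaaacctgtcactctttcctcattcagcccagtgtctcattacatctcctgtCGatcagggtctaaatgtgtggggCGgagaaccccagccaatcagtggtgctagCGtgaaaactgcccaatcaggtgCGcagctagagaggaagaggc

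CpG content, by which vertebrate promoters fall into broad classes, was compared with that of all 35114 promoters in the table. An entry was found for 8 of the 10 genes, all but CDR1 and NCALD. The ratio of observed to expected CpG in the 250 bases before the start was 0.851 for NAP1L3, 0.816 for BASP1, 0.722 for SH3BGRL and 0.720 for SLC16A9. It was 0.554 for HMGN5, 0.526 for PTN, 0.379 for ZNF727 and 0.065 for KLHL4. The median of all promoters was 0.558, and 47.5% of them reached 0.6, as 4 of these 8 did. The genes therefore fell on both sides of the median. For BASP1 and KLHL4 the RefSeq start also lies inside the GENCODE span, and all 250 bases of their windows are in annotated exons, so these values are not those of the bases before the outermost start. The SH3BGRL and HMGN5 windows share most of their bases, with an overlap of 288 of the 300 bases of the table entries.

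**Figure D1:**
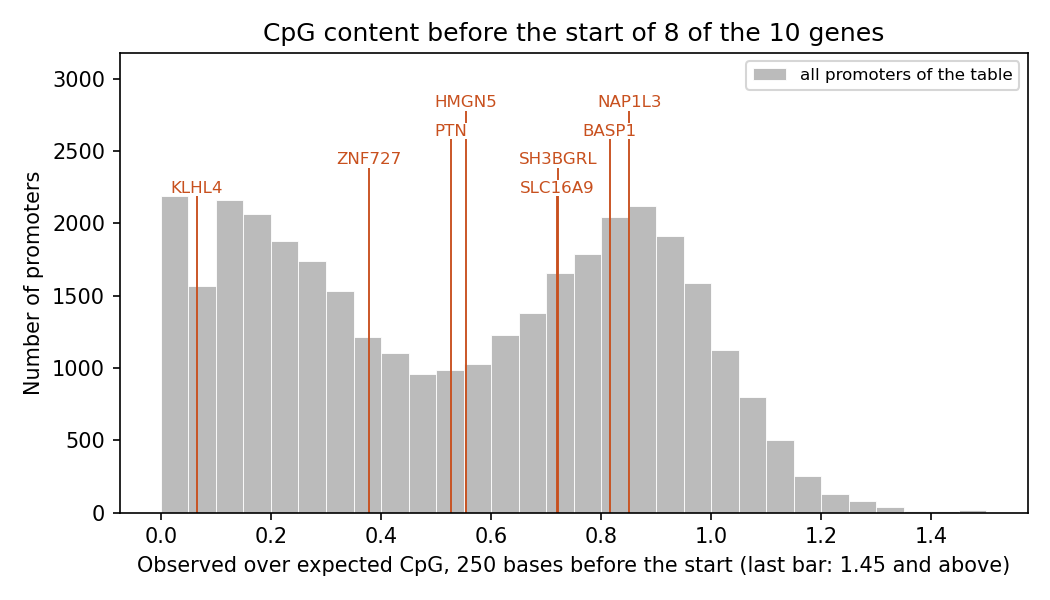
Observed over expected CpG in the 250 bases before the RefSeq start (x axis) for all promoters of the RefSeq table (grey bars, number of promoters) and for 8 of the genes (orange lines). NAP1L3, BASP1, SH3BGRL and SLC16A9 lie at 0.720 to 0.851, and KLHL4, whose window lies in annotated exon sequence, at 0.065.

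Short motifs were searched on both strands of the same windows. TATAAA, the core of the TATA box, was in none of the 8 windows and in 10.7% of all promoters. CCAAT was found once in BASP1 and PTN and at 2 places in ZNF727, and it is in 32.0% of all promoters. TGACTCA, the site of AP-1, was in none of the 8 and in 4.20% of all. CCGGAAG, the core bound by ETS factors, was in the shared SH3BGRL and HMGN5 window and in 8.52% of all. No motif was common to all 8. These matches are descriptions of the letters in the windows.

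The groups did not overlap for any of the 10 members, which their choice fixes. Over the 16020 genes tested, the groups did not overlap for 15.4% with shEphexin1 lower, 12.8% with shEphexin1 higher and 28.3% in either direction. In all, 8 of the 10 were listed at 0 FPKM in each shEphexin1 library, and they are the only genes of the table at 0 in all 3 shEphexin1 libraries and above 0.5 FPKM in all 3 shControl libraries. No gene had the reverse pattern at these limits. The HMGN5 value of 0.524 FPKM in shControl replicate 1 was the lowest inside the limit of 0.5, and RSPO4, at 0.303, 0.306 and 0.399 FPKM in shControl against 0 in shEphexin1, lay nearest outside it. CDR1 and SLC16A9 had small values left in shEphexin1. Values of 0 are given as listed, because H3F3A, a histone gene that dividing cells use, was at 0 in all 6 libraries. In bulk libraries, fewer cells with a transcript and less of it per cell cannot be told apart.

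**Figure D2:**
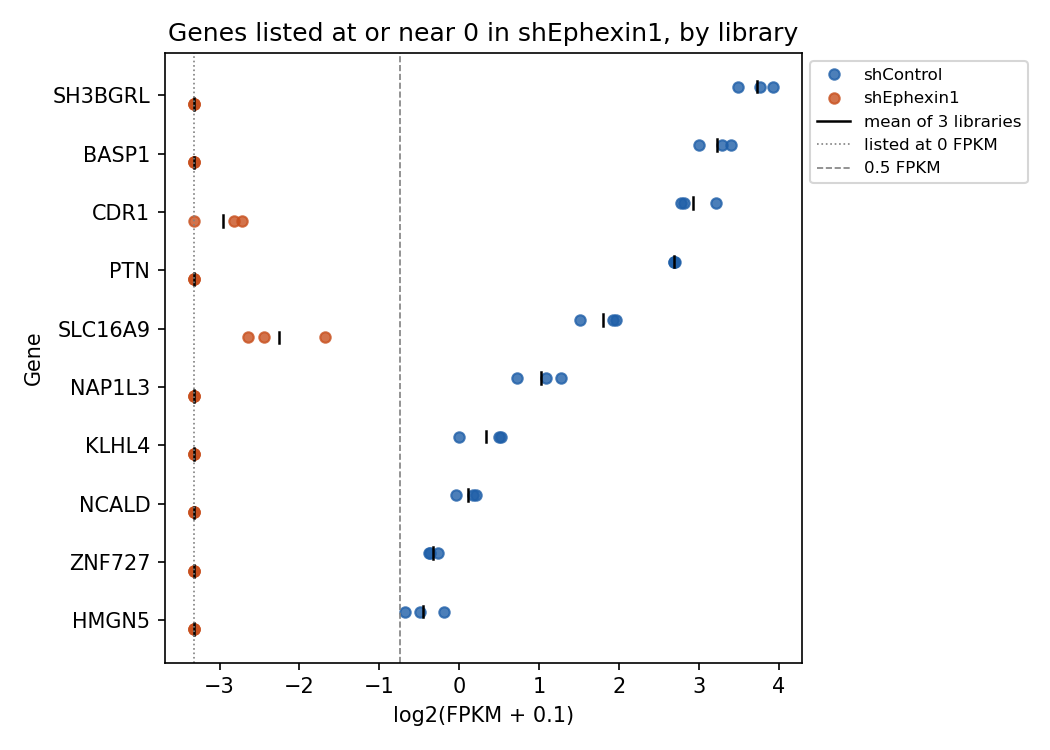
Expression of the 10 genes on the log2(FPKM + 0.1) scale, with 1 point per library, 3 shControl libraries in blue and 3 shEphexin1 libraries in orange, and a black tick at each mean. The dotted line marks genes listed at 0 and the dashed line 0.5 FPKM; every shControl point lies right of the dashed line and every shEphexin1 point left of it.

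The number of reads behind the FPKM values is unknown, and 16958 to 17154 genes were above 0 in the shControl libraries and 17126 to 17509 in the shEphexin1 libraries. Compared with the members, the targeted gene itself was lower by much less. NGEF was at 13.3, 11.7 and 16.4 FPKM in shControl against 9.81, 8.25 and 10.5 FPKM in shEphexin1. The groups did not overlap, but NGEF was not called at the thresholds used here (log2 difference -0.53, standard error 0.163, limma adjusted p = 0.103). A difference of this size is below 2-fold, so it could not be called at any p value. The paper checked the stable knockdown by western blot of the protein, which was not measured here. A gene was called where limma gave an adjusted p no higher than 0.025 and the groups differed by at least 2-fold, which 0.999% of the genes tested met in the lower direction and 0.893% in the higher direction. All 10 members passed the filter on low values (0.1 FPKM in 3 libraries) through shControl alone, so they had to differ and their own counts under these thresholds are not used.

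The label of the cells was compared with markers. VIM, which encodes the intermediate filament vimentin, was at a mean of 2165 FPKM in shControl against 2492 FPKM in shEphexin1, and the epithelial keratin gene KRT18 was at 88.9 and 46.2 FPKM. CDH1 and the lung lineage factor gene NKX2-1 were listed at 0 in all 6 libraries. Of the blood and vessel markers, PTPRC, CD3E and HBB were at 0 in all 6, and the summed level of the list was 0.180 to 0.205 FPKM in shControl against 0.0809 to 0.465 FPKM in shEphexin1. The 12 neural markers summed to 149 to 250 FPKM in shControl against 120 to 193 FPKM in shEphexin1, nearly all of it from the tubulin gene TUBB3, with NEFL and INSM1 at 0 in all 6. The 7 fibroblast markers summed to 0.396 to 0.622 FPKM and 0.623 to 0.894 FPKM, with COL1A2 and LUM at 0 in all 6. None of the markers of other cells was called. Their part in the members' values was not tested.

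PTN was the secreted ligand of the set and the most even of its genes. It lies on chromosome 7 (136912088 to 137028520, minus strand, protein-coding). Its values were 6.37, 6.33 and 6.41 FPKM in shControl, and it was listed at 0 in all 3 shEphexin1 libraries. The coefficient of variation in shControl was 0.605%, the lowest of the 10. Midkine (MDK), the other growth factor of this family, remained expressed. MDK was at 104, 83.8 and 117 FPKM in shControl against 63.9, 50.4 and 71.4 FPKM in shEphexin1. All 3 shEphexin1 values were below all 3 shControl values, but the difference was not called (log2 difference -0.71, standard error 0.172, limma adjusted p = 0.052).

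The list of 21 PTN relatives held MDK beside receptors and partners, and 20 of them were tested. Of these, 3 were called higher in shEphexin1 (15.0%, against 0.893% of all genes tested) and none lower. The median log2 difference of the list was 0.07, and that of all genes tested was -0.01. PTPRS encodes a receptor phosphatase that binds heparan and chondroitin sulfate chains. PTPRS was at 0.210, 0.253 and 0.329 FPKM in shControl against 6.94, 5.51 and 6.70 FPKM in shEphexin1. This was a log2 difference of 4.16 (standard error 0.201, limma adjusted p = 0.00016). NRP1, which encodes the co-receptor neuropilin 1, was at 1.32, 1.86 and 2.14 FPKM in shControl. It was at 6.98, 6.45 and 6.69 FPKM in shEphexin1, without overlap (log2 difference 1.89, standard error 0.194, limma adjusted p = 0.0036). Without shEphexin1 replicate 1 the adjusted p of NRP1 by limma was 0.030.

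SDC1, which encodes the heparan sulfate proteoglycan syndecan 1, rose from 9.85, 7.49 and 11.3 FPKM in shControl to 23.1, 16.3 and 24.1 FPKM in shEphexin1 (log2 difference 1.14, standard error 0.207, limma adjusted p = 0.023). This call was near its limit and was lost in 8 of 17 alternatives, with an adjusted p by limma of up to 0.113 without shEphexin1 replicate 1. The other syndecans were not called, with log2 differences of -0.14 for SDC2, 0.69 for SDC3 and 0.06 for SDC4. PTPRZ1, the receptor phosphatase most closely tied to PTN, was at 1.73, 2.09 and 1.60 FPKM in shControl against 2.97, 3.40 and 2.73 FPKM in shEphexin1, and was not called either (log2 difference 0.72, standard error 0.174, limma adjusted p = 0.052). The kinase gene ALK was listed at 0 in 5 libraries and at 0.0103 FPKM in shEphexin1 replicate 2. Thus the ligand was listed at 0 in shEphexin1 while PTPRS, NRP1 and, near the limit of its call, SDC1 were higher there. A link between these differences was not tested.

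**Figure D3:**
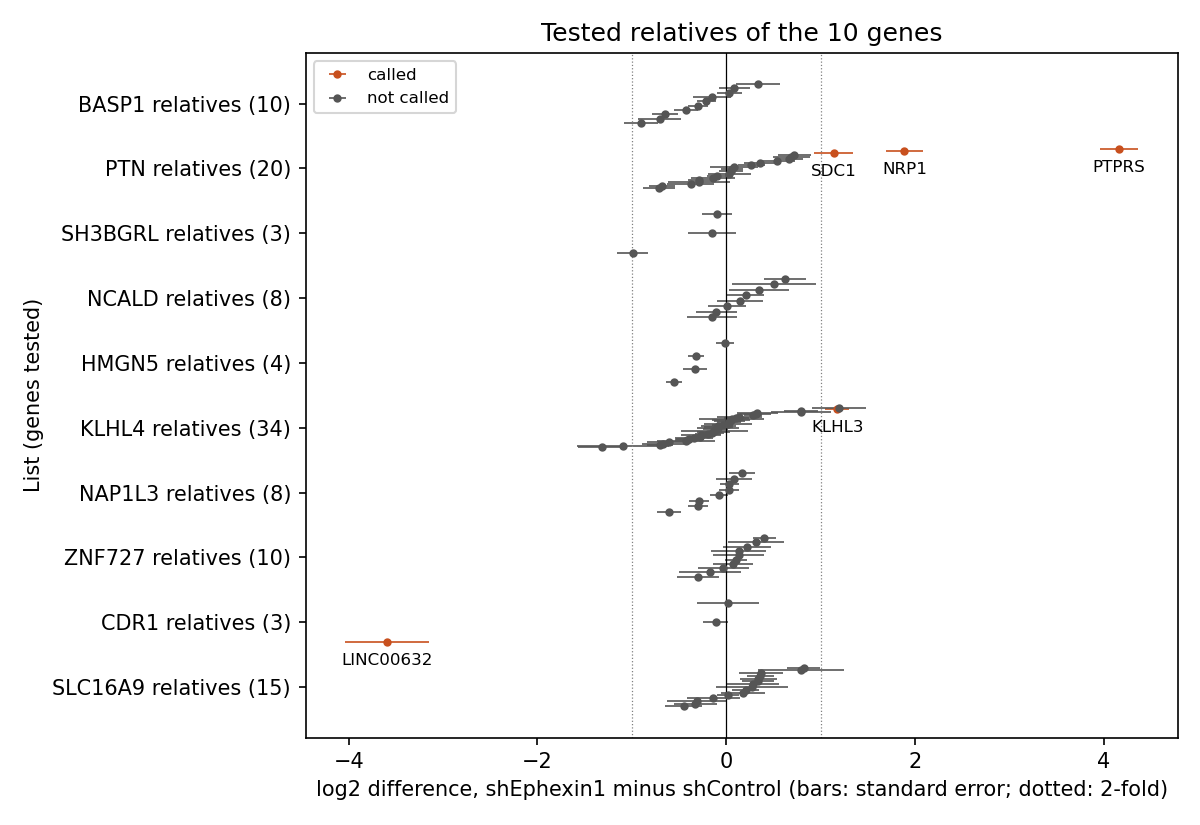
Fitted log2 difference, shEphexin1 minus shControl, of the 115 tested relatives of the 10 genes by list, with standard errors as bars; orange points were called (limma adjusted p of at most 0.025 and at least 2-fold, dotted lines). PTPRS, NRP1, SDC1 and KLHL3 lie to the right and LINC00632 to the left.

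The membrane proteins were BASP1 and NCALD. BASP1, on chromosome 5 (17065707 to 17276952, plus strand), encodes a membrane-bound protein that is also known as a nuclear cofactor of the transcription factor WT1. BASP1 was at 9.68, 7.92 and 10.5 FPKM in shControl against 0 in all 3 shEphexin1 libraries. Its level in shControl was above that of 56.5% of the genes tested. GAP43, which encodes a growth cone protein of the same kind, was close to 0 throughout, at 0.0797, 0.0823 and 0.0974 FPKM in shControl against 0 in shEphexin1, and was too low to be tested. MARCKS and MARCKSL1, whose products bind the same membrane lipids, had means of 85.0 ± 3.75 FPKM (SD, n = 3) and 21.5 ± 4.39 FPKM (SD, n = 3) in shControl. In shEphexin1 they had means of 63.8 ± 8.90 FPKM (SD, n = 3) and 13.3 ± 3.30 FPKM (SD, n = 3), and neither was called. None of the 10 tested BASP1 relatives was called, and WT1 was at a mean of 1.39 FPKM in shControl against 1.48 FPKM in shEphexin1.

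NCALD encodes neurocalcin delta, a calcium sensor that exposes its lipid anchor when it binds calcium. It lies on chromosome 8 (102698770 to 103137135, minus strand). NCALD was at 1.06, 1.03 and 0.875 FPKM in shControl against 0 in all 3 shEphexin1 libraries. Related sensors were present in both groups. HPCAL1 was at 133, 99.4 and 152 FPKM in shControl against 124, 89.2 and 146 FPKM in shEphexin1, with overlapping groups (log2 difference -0.10, standard error 0.219, limma adjusted p = 0.830). NCS1 was at means of 12.8 and 12.7 FPKM. Of 13 sensors listed, 8 were tested, none was called and 3 (RCVRN, KCNIP1 and GUCA1C) were at 0 in all 6 libraries.

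SH3BGRL and HMGN5, the divergent pair, were at very different levels in shControl. SH3BGRL (chromosome X, 80457601 to 80554046, plus strand) was the highest of the 10 genes in shControl, at 13.6, 15.1 and 11.1 FPKM, and was at 0 in all 3 shEphexin1 libraries. HMGN5 (chromosome X, 80369198 to 80457412, minus strand) was the lowest, at 0.524, 0.778 and 0.612 FPKM, and was at 0 in shEphexin1. Thus transcripts on both sides of the 188 bases were listed at 0 together. Of the SH3BGRL family, SH3BGRL2 was lower in shEphexin1, at a mean of 49.7% of its shControl mean. With 0.1 FPKM added to each value the difference fell just short of 2-fold, so SH3BGRL2 was not called. SH3BGRL2 was at 5.70, 5.69 and 4.91 FPKM in shControl against 2.53, 3.23 and 2.35 FPKM in shEphexin1 (log2 difference -0.99, standard error 0.167, limma adjusted p = 0.019). SH3BGRL3, at means of 133 and 124 FPKM, was not called.

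The nucleosome binders HMGN1 to HMGN4 stayed highly expressed beside HMGN5. HMGN2 was at 336, 328 and 344 FPKM in shControl against 234, 235 and 220 FPKM in shEphexin1. All shEphexin1 values were lower, and the adjusted p by limma was 0.016, but the difference of -0.55 on the log2 scale (standard error 0.088) was below the 2-fold limit. The log2 differences of HMGN1, HMGN3 and HMGN4 were -0.32, -0.33 and -0.01, and none was called. HMGN2 has processed copies in the genome, and how the counting shared reads among such copies is not given in the sources used here.

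NAP1L3, a gene without introns in a family of histone chaperones, lies on the X chromosome (92925929 to 92928577, minus strand). NAP1L3 was at 2.02, 2.32 and 1.55 FPKM in shControl against 0 in all 3 shEphexin1 libraries. Among the chaperones of its family, NAP1L1 was at means of 211 ± 16.6 FPKM (SD, n = 3) and 140 ± 18.7 FPKM (SD, n = 3) and NAP1L4 at 35.8 and 36.5 FPKM, with neither called. In all, 8 of 10 NAP1L3 relatives were tested and none was called. The other X-linked brain member, NAP1L2, was at or near 0 in both groups.

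KLHL4 (chromosome X, 86772412 to 86925050, plus strand) belongs to the BTB-Kelch family, members of which bring substrates to the CUL3 ubiquitin ligase. KLHL4 was at 0.895, 1.31 and 1.34 FPKM in shControl against 0 in all 3 shEphexin1 libraries. Of 34 tested genes of the family and the ligase, 1 was called higher (2.94%, against 0.893% of all genes tested) and none lower. Their median log2 difference was -0.09. KLHL3, known for the turnover of WNK kinases, was the gene called, at 2.42, 2.58 and 2.40 FPKM in shControl against 5.82, 5.56 and 5.72 FPKM in shEphexin1 (log2 difference 1.18, standard error 0.128, limma adjusted p = 0.0040). Its adjusted p by limma was 0.041 without shControl replicate 1, 0.039 without shEphexin1 replicate 1 and 0.027 without shEphexin1 replicate 3, and with a pseudocount of 1 FPKM its log2 difference was 0.95. KLHL14 was at 1.15, 1.16 and 0.860 FPKM in shControl against 0.271, 0.456 and 0.374 FPKM in shEphexin1 without overlap, and missed the threshold (log2 difference -1.32, standard error 0.25, limma adjusted p = 0.027). It was called lower by limma with the replicate number as a block (adjusted p = 0.0098) and with a term for replicate 2 (adjusted p = 0.0055). KLHL5 and the ligase scaffold CUL3 were not called, at log2 differences of -0.27 and -0.09.

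ZNF727, a gene of the KRAB zinc finger family, lies on chromosome 7 (63505812 to 63545717, plus strand) in a cluster of related genes. ZNF727 was at 0.731, 0.673 and 0.680 FPKM in shControl against 0 in all 3 shEphexin1 libraries. The cluster did not follow it. Its nearest tested neighbours ZNF736 and ZNF680, at 222 and 435 kb, had log2 differences of 0.40 and 0.22, with shControl means of 17.0 and 15.8 FPKM, and were not called. None of the 10 tested relatives was called, among them TRIM28 and SETDB1, which act with KRAB zinc finger proteins. Zinc finger genes of a cluster are alike in sequence, so reads may be shared among them.

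SLC16A9 (chromosome 10, 61410522 to 61495760, minus strand), whose product MCT9 is linked to carnitine transport, kept a trace of expression. SLC16A9 was at 3.79, 3.69 and 2.76 FPKM in shControl against 0.211, 0.0839 and 0.0603 FPKM in shEphexin1. The shEphexin1 mean was 3.47% of the shControl mean, and shEphexin1 replicate 1, at 0.211 FPKM, was the highest of the depleted libraries for any of the 10 genes. The transporters SLC16A1 and SLC16A3 and their chaperone BSG remained at means of 30.6, 96.8 and 744 FPKM in shControl against 31.2, 88.8 and 845 FPKM in shEphexin1. None of the 15 tested SLC16A9 relatives was called.

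CDR1 lies on the minus strand of the X chromosome (139865743 to 139866531), where GENCODE lists it as a long non-coding RNA. CDR1 was at 6.91, 6.73 and 9.16 FPKM in shControl against 0.0517, 0.0423 and 0 FPKM in shEphexin1. The opposite strand of this span is the source of the circular RNA CDR1as, which was not measured by name here. miR-7-5p is a microRNA whose seed, bases 2 to 8, is in capitals in its mature sequence from RefSeq. The match to this seed, GTCTTCC, occurs 38 times on the plus strand of the 789 bases of CDR1 and 0 times on the minus strand. The 240 bases with the most matches, chrX:139865757-139865996 on the plus strand of GRCh37, hold 12 of them, in capitals.
miR-7-5p: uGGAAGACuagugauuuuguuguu
CDR1 span, plus strand: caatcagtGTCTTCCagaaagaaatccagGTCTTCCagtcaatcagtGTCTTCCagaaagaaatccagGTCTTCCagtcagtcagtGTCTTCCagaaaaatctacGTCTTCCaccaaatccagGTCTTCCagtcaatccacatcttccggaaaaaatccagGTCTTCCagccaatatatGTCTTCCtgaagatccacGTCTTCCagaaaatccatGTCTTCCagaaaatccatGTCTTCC

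LINC00632, a long non-coding RNA gene on the plus strand (chromosome X, 139791727 to 139875380), spans CDR1 and is the host of the circular RNA. LINC00632 was at 1.86, 1.78 and 0.622 FPKM in shControl against 0, 0.0511 and 0 FPKM in shEphexin1. It passed the filter on low values through shControl alone, so its call (log2 difference -3.59, standard error 0.443, limma adjusted p = 0.0067) is given as a description, and the size depends on the pseudocount. With no filter the limma adjusted p was 0.0096. The call was lost by limma without shControl replicate 1 (adjusted p = 0.046), without shEphexin1 replicate 1 (adjusted p = 0.039) and without shEphexin1 replicate 3 (adjusted p = 0.033). The library kit keeps the strand, but the strand setting of the counting is not given in the sources used here. Reads of CDR1 and of the antisense RNA can therefore not be told apart, and which strand the CDR1 values come from was not tested. CDR2 and CDR2L, which share the name of the locus and encode other antigens, were not called (log2 differences -0.11 and 0.02).

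Over all lists, 115 of 139 relatives were tested. Of these, 1 was called lower (0.870%, against 0.999% of all genes tested) and 4 were called higher (3.48%, against 0.893%). The median log2 difference of the relatives was 0.02. The 1 called lower was LINC00632, which overlaps CDR1 and passed the filter through shControl alone, so that count supports nothing about the lists. KLHL14 was called lower in other fits, as given above.

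The neighbourhood of the members on the chromosomes was read from the same fit. The table holds 64 other genes within 1 Mb of a member, of which 31 were tested, 4 were called lower and none higher. Over all genes tested, 0.999% were called lower and 0.893% higher. The 4 were LINC00632 at CDR1 and BICC1, FAM13C and ANK3, which lie on either side of SLC16A9. All 4 passed the filter on low values through shControl alone, so the count is a description and supports nothing about the neighbourhood. With no filter, limma gave adjusted p values of 0.00030 for BICC1, 0.0023 for FAM13C and 0.0091 for ANK3. BICC1, which encodes an RNA-binding protein, starts the stretch at 819 kb before SLC16A9. BICC1 was at 4.63, 5.27 and 4.08 FPKM in shControl against 0.0307, 0.0670 and 0.0735 FPKM in shEphexin1 (log2 difference -4.92, standard error 0.222, limma adjusted p = 0.00011). FAM13C, at 288 kb before SLC16A9, was at 0.540, 0.571 and 0.618 FPKM in shControl against 0.0270, 0 and 0 FPKM in shEphexin1 (log2 difference -2.64, standard error 0.283, limma adjusted p = 0.0039).

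ANK3, which encodes the membrane scaffold ankyrin G, lies 290 kb after SLC16A9. ANK3 was at 0.552, 0.675 and 0.405 FPKM in shControl against 0.0675, 0.0659 and 0.0603 FPKM in shEphexin1 (log2 difference -1.95, standard error 0.285, limma adjusted p = 0.012). FAM13C lost its call without shControl replicate 1 (limma adjusted p = 0.036) and without shControl replicate 3 (limma adjusted p = 0.0252), and with a pseudocount of 1 FPKM, where its log2 difference was -0.64. ANK3 lost its call in 7 of 16 alternatives, with a highest limma adjusted p of 0.077 without shControl replicate 1. Not every gene there was near 0 in shEphexin1. CCDC6, 52.7 kb after SLC16A9, was at 21.7, 28.5 and 20.7 FPKM in shControl against 12.5, 15.4 and 11.9 FPKM in shEphexin1, and was not called (log2 difference -0.82, standard error 0.165, limma adjusted p = 0.032).

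Within 2 Mb of SLC16A9 all 12 tested genes had a log2 difference below 0, and the median of all genes tested was -0.01. BICC1, FAM13C, ANK3, RHOBTB1 and FAM133CP passed the filter through shControl alone, which fixed the sign of their differences. The number below 0 therefore supports nothing about the neighbourhood. FAM133CP was at 0.311, 0.189 and 0.117 FPKM in shControl and was not called. Of the 12, 4 were called lower, against 0.999% of all genes tested. All 4 passed the filter through shControl alone, so this count too supports nothing about the neighbourhood. The one added by the wider window was RHOBTB1, a gene of the BTB family 1133 kb after SLC16A9, at 2.60, 2.95 and 2.54 FPKM in shControl against 0, 0.0736 and 0.0231 FPKM in shEphexin1 (log2 difference -4.44, standard error 0.272, limma adjusted p = 0.00034). RHOBTB1 too passed the filter through shControl alone, and its limma adjusted p was 0.00081 with no filter. Between ANK3 and RHOBTB1 lies CDK1, the mitotic kinase gene, which was at means of 196 and 115 FPKM and was not called. After SLC16A9, genes near 0 thus alternated with genes that stayed well above 0. From BICC1 to SLC16A9 no gene stayed well above 0 in shEphexin1. There LINC00844 and PHYHIPL, both low in shControl too, were at 0 in shEphexin1, and FAM133CP was at 0, 0 and 0.0372 FPKM. The size of a log2 difference toward 0 depends on the pseudocount.

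The other members had no called neighbour within 1 Mb, apart from LINC00632 at CDR1. For SH3BGRL and HMGN5, the 3 tested neighbours BRWD3, FAM46D and CHMP1B2P had log2 differences of -0.84, -1.01 and -0.60 and none was called. For NCALD, all 10 tested neighbours lay below 0, with a median of -0.23, and none was called, the nearest being RRM2B at -0.05. FAM133A, whose start faces that of NAP1L3 across 434 bases, was at 0.328, 0.236 and 0.0914 FPKM in shControl against 0.0743, 0.172 and 0.0854 FPKM in shEphexin1, with overlapping groups (log2 difference -0.55, standard error 0.402, limma adjusted p = 0.471). Thus the partner of NAP1L3 across its start was low in both groups, in contrast to the SH3BGRL and HMGN5 pair. CHRM2 and CREB3L2 beside PTN had log2 differences of -0.24 and 0.51, and ZNF622 before BASP1 had -0.51. None of these was called, and KLHL4 had no tested neighbour.

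**Figure D4:**
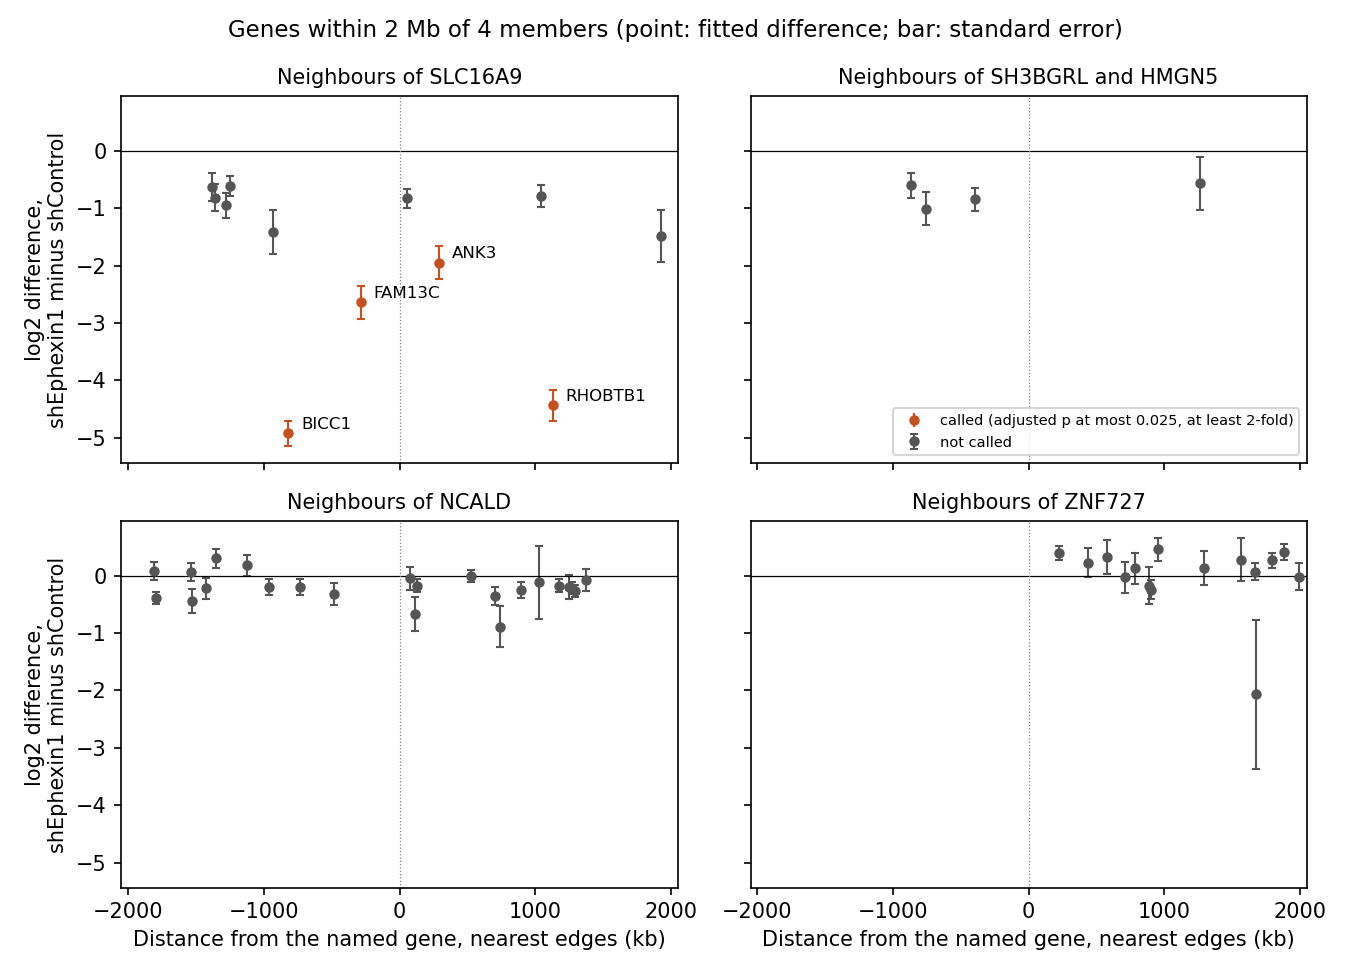
Fitted log2 difference, shEphexin1 minus shControl, with standard error, of the tested genes within 2 Mb of SLC16A9, SH3BGRL with HMGN5, NCALD and ZNF727 against their distance in kb. Only around SLC16A9 were genes called (orange: BICC1, FAM13C, ANK3 and RHOBTB1), and the ZNF727 neighbours within 1 Mb lie between -0.24 and 0.46.

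The X chromosome carried 5 of the 10 members, SH3BGRL, HMGN5, KLHL4, NAP1L3 and CDR1, whereas 498 of the 15204 tested genes with a position (3.28%) are X-linked. No test was made, since the members were picked by their values. Without the 5 members, 8 of 493 X-linked genes were called lower (1.62%, against 0.999% of all genes tested) and 4 higher, with a median log2 difference of -0.08. Of the 8, only 7 reached 0.1 FPKM in 1 or more shEphexin1 libraries. The remaining gene, LINC00632, overlaps CDR1 and passed the filter through shControl alone. The filter asks for 0.1 FPKM in 3 libraries, so 1 such shEphexin1 library does not make a gene pass without shControl. The share called lower is thus a description and supports nothing about the X chromosome. HMGN5, SH3BGRL, KLHL4 and NAP1L3 lie within 12.6 Mb of each other. The table holds 19 other genes in this interval, of which 6 passed the filter and all 6 had a log2 difference below 0, with a median of -0.50. A further 10 genes of the interval were at 0 in all 6 libraries.

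ZNF711, a zinc finger gene, was the called gene of the interval. ZNF711 was at 2.42, 2.45 and 2.02 FPKM in shControl against 0.982, 1.25 and 0.890 FPKM in shEphexin1 (log2 difference -1.08, standard error 0.193, limma adjusted p = 0.022). The call was lost in 8 of 17 alternatives, with a limma adjusted p of up to 0.120 without shControl replicate 1. The other tested genes, SNORA4, HDX, APOOL, SATL1 and CHM, had log2 differences of -0.56, -0.14, -0.94, -0.25 and -0.43 and were not called. CHM, the gene of Rab escort protein 1, had a mean of 15.0 ± 2.39 FPKM (SD, n = 3) in shControl against 11.2 ± 2.87 FPKM (SD, n = 3) in the depleted cells, with overlapping groups. Expressed genes therefore remained between SH3BGRL and KLHL4. Between KLHL4 and NAP1L3 no gene passed the filter. There CPXCR1, TGIF2LX, PABPC5-AS1 and PABPC5 were at 0 in all 6 libraries. PCDH11X was above 0 only in shControl replicate 1, at 0.0111 FPKM.

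At limits of at most 0.1 FPKM in every shEphexin1 library and above 0.5 FPKM in every shControl library, 27 genes (0.103% of the table) had the pattern, and 9 of them were members. SLC16A9 fell outside only through shEphexin1 replicate 1. The reverse pattern was held by 4 genes.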

How the data were processed

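RNA from TRIzol extracts was prepared with a kit for stranded total RNA and read on a NovaSeq instrument. Per the labels and the methods, the authors used bcl2fastq 2.20, mapped reads to GRCh37/hg19 with TopHat2 2.0.13 and Bowtie, and deposited FPKM per gene and library from Cuffdiff of Cufflinks 2.2.1 with geometric normalization and pooled dispersion. The annotation, strand setting and filters are not given in the sources used here. FPKM hold no read counts and whole reads could not be recovered, so depth is unknown and no counting interval is given.

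The 16020 of 26255 genes that reached 0.1 FPKM in 3 or more of the 6 libraries were compared on the log2(FPKM + 0.1) scale with limma 3.58.1 (lmFit, eBayes with trend) in R 4.3.3 and Benjamini-Hochberg adjustment over all of them. Fold changes on this scale understate those of low genes. Fits without a library kept the same genes. The script was tested on simulated data. Positions are from GENCODE release 44 on GRCh37, and 23759 names matched, 1337 of them by an older symbol. Python 3.11.15, pandas 2.3.3 and matplotlib 3.10.9 were used.

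The members, lists and tests were chosen with earlier results of these data known. Named were the members, NGEF, called relatives and a fixed list of others, called or nearest tested neighbours, the tested genes between HMGN5 and NAP1L3 and up to 10 other genes of the pattern. RSPO4, CCDC6, CDK1 and some relatives were named after their values were seen. Alternatives were other pseudocounts, filters, scalings, variance models, thresholds, windows, a replicate block, a term for replicate 2, and each library left out.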

Additional observations from a re-analysis of the deposited data

How the results depend on the processing

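The genes called lower (160) and higher (143) numbered 66 and 73 with a pseudocount of 1 FPKM and 105 lower with a filter of 1 FPKM. With each library left out, they ranged from 37 to 157 and from 23 to 159. Higher calls numbered 234 with replicates 1 and 3 alone and 239 at an adjusted p of 0.05. With the replicate number as a block, 247 genes were called lower and 309 higher, and with a term for replicate 2, 252 and 312. The labels do not say that numbers pair the libraries. Deviations from the group means correlated at 0.091, 0.430 and 0.328 across genes for replicates 1, 2 and 3, each library best with its own number, which is a hint only. For shEphexin1 replicate 1 the value with shControl replicate 3 was nearly the same, at 0.089. Called relatives (5) ranged from 1 to 6 with a library left out, and numbered 7 with the replicate block and with the term for replicate 2, both of which added KLHL14 lower and KLHL41 higher. Called neighbours (4) ranged from 1 to 4, and numbered 2 with a pseudocount of 1 FPKM, 1 with a filter of 1 FPKM and 1 within 250 kb. Genes of the pattern (27) numbered 41 with a limit near 0 of 0.2 FPKM and 13 when 1 FPKM was asked of shControl. The median of the members' log2 differences, -4.20, depends on the pseudocount by construction, at -1.77 with 1 FPKM and -7.24 with 0.01 FPKM. It was -5.95 with the filter of 1 FPKM, which leaves 6 members. NGEF was lower in all 18 alternatives but never by 2-fold, so it could not be called in any. Its limma adjusted p was 0.0028 with the replicate block and 0.0057 with the term for replicate 2. PTPRS stayed called in all alternatives. BICC1 did too, but it passed the filter through shControl alone, so its calls are a description. Where no cause is given, it was not tested. Counts of 5 or fewer calls rest on few genes, and unknown depth limits what a value of 0 can show.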

Other observations

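Beyond the 10 genes, 18 others were at most 0.1 FPKM in every shEphexin1 library and above 0.5 FPKM in every shControl library. BICC1, FAM13C, RHOBTB1 and LINC00632 are among them and were described above by their place or list. The genes below were chosen by these values and are given without a test. The highest in shControl after BICC1 was GSDMD, which encodes the pore-forming protein of pyroptosis. GSDMD was at 3.70, 3.17 and 5.12 FPKM in shControl against 0.0705, 0.0346 and 0.0923 FPKM in shEphexin1. SLC6A15, a neutral amino acid transporter gene of the brain, was at 3.76, 4.08 and 3.56 FPKM in shControl against 0.0230, 0.0294 and 0.0259 FPKM in shEphexin1. KCTD16, an auxiliary subunit gene of the GABA-B receptor, was at 2.82, 3.27 and 2.36 FPKM in shControl against 0.0341, 0.0183 and 0 FPKM in shEphexin1. CCND2 was at 2.31, 2.89 and 2.61 FPKM in shControl against 0.0153, 0 and 0.0183 FPKM in shEphexin1. The paper's methods list CCND2, the member CDR1 and PTPRU among the genes measured by RT-qPCR. Its results report that RT-qPCR bore out genes with a marked difference in these cells, without naming them in the text.

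SLC7A2, which encodes a cationic amino acid transporter, was at 2.34, 2.26 and 2.04 FPKM in shControl against 0.0135, 0 and 0 FPKM in shEphexin1. ADAM12, which encodes a membrane metalloprotease, was at 1.11, 1.03 and 1.15 FPKM in shControl against 0, 0 and 0.0330 FPKM in shEphexin1. DAB2, an endocytic adaptor gene, was at 1.02, 0.692 and 1.15 FPKM in shControl against 0.0201, 0 and 0.0244 FPKM in shEphexin1. The groups did not overlap for any of these genes, as the limits require.

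The reverse pattern was held by RXRA, PTPRU, COL13A1 and MEGF6, named here after their values were seen. RXRA, the partner of many nuclear receptors, was at 0.0810, 0.0858 and 0.0777 FPKM in shControl against 1.80, 1.31 and 2.19 FPKM in shEphexin1. PTPRU, a receptor phosphatase gene like PTPRS, was at 0.0674, 0.0304 and 0.0667 FPKM in shControl against 1.15, 0.556 and 0.975 FPKM in shEphexin1.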
